A study of Homo sapiens with 18 samples.

Results

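The 9 genes described here are growth-related targets that textbooks give for the STAT transcription factors: the kinase genes PIM1, PIM2 and PIM3, the transcription factor genes MYC, BCL6, CEBPB, CEBPD and SOX9, and the mucin gene MUC1. They were taken by name, from the probe sets that carry a single gene symbol, and hold 15 of the 54675 probe sets on the array and 9 of the 19775 genes it measures. The cells were DU145 and CWR22Rv1, established lines of human prostate cancer. DU145 was derived from a brain metastasis and lacks androgen dependence, and CWR22Rv1 came from a xenograft that regrew after castration. In each line, 3 arrays were run for cells given a scramble siRNA as control, 3 for Stat3 siRNA and 3 for siRNA to both Stat5a and Stat5b, which makes 6 groups and 18 Affymetrix arrays. All groups, control included, were transfected with a cationic lipid reagent and harvested after 48 h, and RNA was not pooled. The labels do not say that the 3 arrays of a group came from separate cultures, so p-values measure the spread between these arrays, which may be technical.

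STAT3 and STAT5 wait in the cytoplasm until kinases below cytokine and growth factor receptors phosphorylate them; they then pair, enter the nucleus and bind palindromic DNA of the type TTCNNNGAA. The genes they are best known to switch on include short-lived growth regulators. PIM kinases have no regulatory domain and act largely as their amount dictates, MYC drives ribosome production and growth, and the C/EBP factors CEBPB and CEBPD serve acute-phase and differentiation programmes. BCL6 is a repressor that STAT5 is known to lower in lymphoid cells, MUC1 is a surface mucin of luminal epithelia, and SOX9 is a factor of epithelial progenitor cells.

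The motif these factors bind was looked for in the promoters, 250 bases before to 50 after a gene's start, taken from RefSeq on build GRCh38.p14. Windows were at hand for 6 of the 9 genes, and MYC, CEBPD and SOX9 were not searched. Both strands were searched for the STAT motif TTCNNNGAA, held by 7.66% of all 35116 windows, a wider form of it with 1 more base in the middle (6.44%), the E-box CACGTG that MYC binds (7.26%) and the C/EBP motif TTGCNNAA (10.5%). Matches were found in 1 window each of BCL6 and PIM2, which are shown for that reason. In BCL6 the STAT motif occurs 4 times: at bases -28 to -20 (TTCCGAGAA), -5 to 4 (TTCTTAGAA), 11 to 19 (TTCTTAGAA) and 37 to 45 (TTCTAGGAA), counted from the transcript's first base as 1. In PIM2 the C/EBP motif occurs at bases -158 to -151 (TTGCATAA). A match describes letters and does not show a bound site, and no match says only that these letters are not in the window. The 250 bases before each start follow, 5′ to 3′ on the gene's own strand, with matches in capitals; the last capitals in BCL6 begin the match that crosses the start.
BCL6, chr3:187745469-187745718, minus strand: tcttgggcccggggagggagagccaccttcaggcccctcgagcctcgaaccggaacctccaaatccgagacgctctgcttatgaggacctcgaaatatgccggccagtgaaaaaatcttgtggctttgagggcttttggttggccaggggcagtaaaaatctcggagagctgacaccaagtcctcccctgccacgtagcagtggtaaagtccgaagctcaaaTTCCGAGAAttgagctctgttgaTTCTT
PIM2, chrX:48919025-48919274, minus strand: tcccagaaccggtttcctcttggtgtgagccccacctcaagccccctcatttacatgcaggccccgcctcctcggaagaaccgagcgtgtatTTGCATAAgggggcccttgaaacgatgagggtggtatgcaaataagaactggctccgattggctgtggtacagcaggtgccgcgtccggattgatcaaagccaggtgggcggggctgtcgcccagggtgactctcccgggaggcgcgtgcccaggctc
On the same build PIM1 lies on chromosome 6, 37170152 to 37175428; PIM2 on chromosome X, 48913182 to 48919024; PIM3 on chromosome 22, 49960772 to 49964072. MUC1 lies on chromosome 1, 155185824 to 155192915, BCL6 on chromosome 3, 187721377 to 187745468, CEBPB on chromosome 20, 50190583 to 50192690 and SOX9 on chromosome 17, 72121020 to 72126416.

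All levels are the deposited log2 values, on which a difference of 1 is a doubling, and a gene was read from its brightest single-symbol probe set. A gene was called at a limma adjusted p under 0.05 over all 19775 genes. Stat3 siRNA left STAT3 at 32.6% of control in DU145 and 45.7% in CWR22Rv1. The lines started from unlike levels. In DU145 STAT3 measured 10.91, 10.96 and 10.82 in control and 9.45, 9.19 and 9.20 with Stat3 siRNA. In CWR22Rv1 it measured 7.40, 7.21 and 7.24 in control, below the DU145 arrays after knockdown, and 6.04, 6.31 and 6.11 with Stat3 siRNA. The part of these levels in differences between the lines was not tested. Stat5a/b siRNA left STAT5B at 39.1% and 53.4%, whereas STAT5A differed from control by -0.30 and -0.34 and was not called. Keratin genes of luminal epithelium, KRT8 and KRT18, had group means of 10.1 to 13.1, and the leukocyte gene PTPRC 2.96 to 3.16. HOXB13, a prostate lineage factor, stood at 4.44 in DU145 control and 9.35 in CWR22Rv1 control. Markers of the same cell type did not all stand alike. In the same order, the luminal gene KLK3 stood at 6.69 and 6.76 and the neuroendocrine gene ENO2 at 8.87 and 9.88. The fibroblast genes COL1A1 and LUM stood at 7.18 and 7.85 and at 2.555 and 8.12, and the leukocyte gene CD14 at 6.12 and 4.31. The median SD of a gene within a group was 0.112 to 0.126 in DU145 and 0.0724 to 0.0824 in CWR22Rv1. One error was fitted for both lines, so calls of the 9 genes that change when a line is fitted alone are given as such; the listed genes and single probe sets were not fitted by line.

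The 2 lines held most of these genes at different levels before any knockdown. In control cells 4 were higher and 4 lower in CWR22Rv1 than in DU145, in a comparison where 56.9% of all genes were called (30.0% higher, 27.0% lower). The widest gap was in MUC1, at 10.90 ± 0.11 (SD, n = 3) in DU145 and 6.18 ± 0.17 in CWR22Rv1, a 26.4-fold lower level in CWR22Rv1 (-4.72 ± 0.14 SE, adjusted p = 2.26e-14). Its other 2 probe sets gave 30.6-fold and 6.64-fold in the same direction. BCL6 stood at 8.26 ± 0.016 and 11.09 ± 0.029, 7.09-fold higher in CWR22Rv1. PIM3 (4.90-fold), SOX9 (4.03-fold) and MYC (1.62-fold) were also higher there. CEBPD (2.26-fold), PIM1 (1.54-fold) and PIM2 (1.14-fold) were lower in CWR22Rv1, but the PIM2 call was lost without DU145 control replicate 1 (adjusted p = 0.0662) or CWR22Rv1 control replicate 2 (0.0540), with quantile normalisation (0.0970) and with a variance trend (0.0533). CEBPB, at 10.65 ± 0.089 and 10.53 ± 0.041, was not called (-0.12 ± 0.058 SE, adjusted p = 0.0793); it was called lower in CWR22Rv1 without DU145 control replicate 3 (adjusted p = 0.0190), with cyclic loess (0.0253), without dim genes (0.0367) and with a variance trend (0.0289). The 3′ minus 5′ signal of the ACTB control probe sets, a measure of RNA quality and labelling, was 0.546 in DU145 control and 0.760 in CWR22Rv1 control. That of GAPDH was 0.103 in DU145 control and 0.083 in CWR22Rv1 control, with overlapping arrays. The part of this measure in the differences between the lines was not tested.

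**Figure D1:**
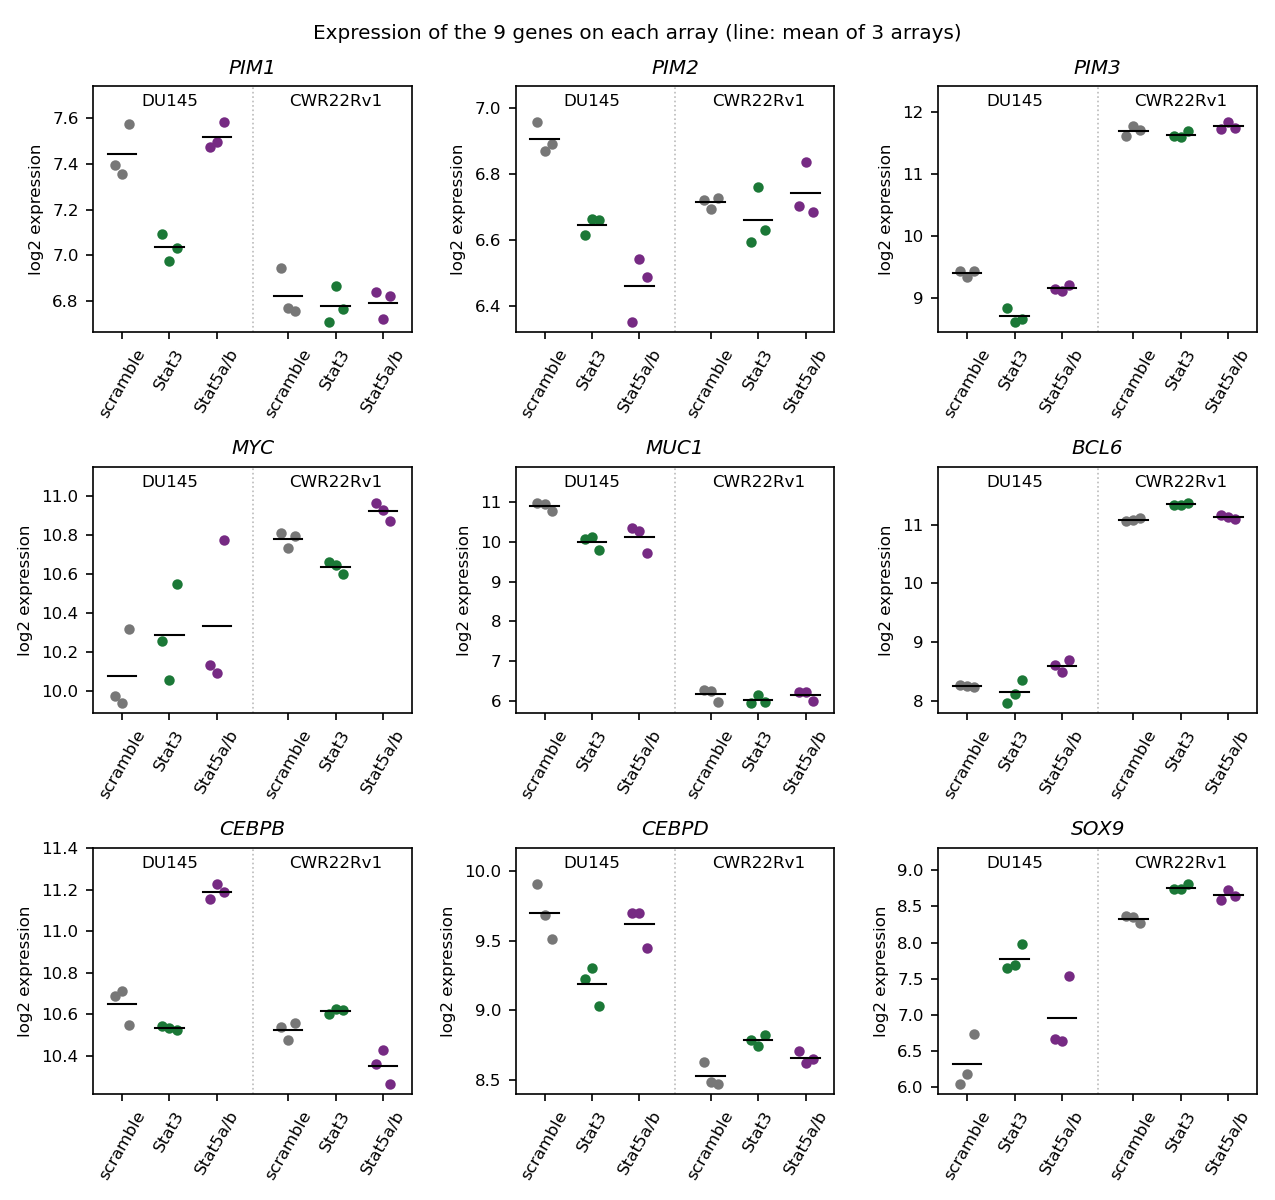
Deposited log2 expression of the 9 genes (vertical axes, one scale per gene) on each of the 18 arrays, arranged by line and siRNA, with points for arrays and lines for means of 3. PIM3 and BCL6 sit higher and MUC1 lower in CWR22Rv1 under every siRNA, and the siRNA groups part from control mainly in DU145.

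Stat3 siRNA in DU145 lowered 5 of the 9 genes, PIM1, PIM2, PIM3, MUC1 and CEBPD, and raised SOX9, against 15.8% of all genes called there (8.25% lower, 7.51% higher). The median change of the 9 was -0.26, beside 0.0056 for all genes. Stat5a/b siRNA in DU145 lowered 3, PIM2, PIM3 and MUC1, and raised 3, BCL6, CEBPB and SOX9, against 24.3% of all genes (12.5% lower, 11.8% higher); the medians were 0.075 and 0.011. Both comparisons share the control arrays. On the DU145 arrays alone 5 genes were called with Stat3 siRNA, PIM2 being lost (adjusted p = 0.0749). Under Stat5a/b siRNA 3 were, as PIM3 (0.0769), BCL6 (0.0545) and SOX9 (0.119) were lost.

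In CWR22Rv1 limma called 0 of the 9 with either siRNA, where 4.77% of all genes were called with Stat3 siRNA (2.75% higher, 2.02% lower) and 6.46% with Stat5a/b siRNA (3.16% higher, 3.30% lower). At an unadjusted p under 0.05 there were 3 with Stat3 siRNA (BCL6, CEBPD and SOX9) and 1 with Stat5a/b siRNA (CEBPB). The 95% intervals of all 18 changes lay between -0.47 and 0.84. On the CWR22Rv1 arrays alone, whose spread is smaller, SOX9 (adjusted p = 0.00204), BCL6 (0.00643) and CEBPD (0.0215) were called higher with Stat3 siRNA, and SOX9 (0.00525) with Stat5a/b siRNA.

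**Figure D2:**
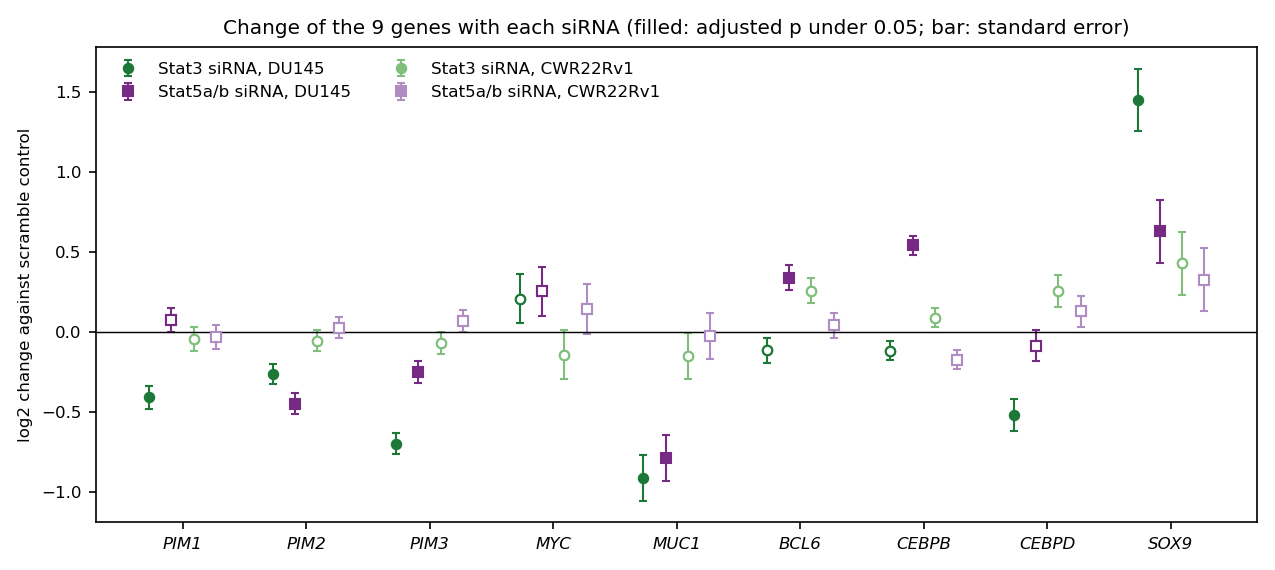
Log2 change from scramble control (vertical axis) of the 9 genes under each siRNA in each line, as differences between means of 3 arrays with standard errors of the fit; filled points are called. Called changes occur in DU145, from -0.91 for MUC1 to 1.45 for SOX9, both with Stat3 siRNA.

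The PIM kinases, which phosphorylate overlapping sets of survival and translation proteins, parted by siRNA in DU145. PIM1, the member most often named as a STAT target, measured 7.40, 7.36 and 7.57 in control, 7.09, 6.98 and 7.03 with Stat3 siRNA and 7.47, 7.50 and 7.58 with Stat5a/b siRNA. Its Stat3 arrays all lay below control, and its Stat5a/b arrays overlapped control. PIM1 fell to 75.4% of control with Stat3 siRNA (-0.41 ± 0.073 SE, adjusted p = 0.000995), while Stat5a/b siRNA gave 0.075 ± 0.073 (95% interval -0.080 to 0.23). The siRNAs differed from each other (0.48 ± 0.073 SE, adjusted p = 0.000155), in a comparison that called 5 of the 9 genes higher and 2 lower with Stat5a/b than with Stat3 siRNA, and 22.1% of all genes (11.0% higher, 11.2% lower).

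PIM2, encoded on the X chromosome, measured 6.96, 6.87 and 6.89 in control, 6.61, 6.66 and 6.66 with Stat3 siRNA and 6.35, 6.54 and 6.49 with Stat5a/b siRNA. The 3 DU145 groups did not overlap, and the Stat5a/b arrays were the lowest. PIM2 fell to 83.5% of control with Stat3 siRNA (-0.26 ± 0.064 SE, adjusted p = 0.0104) and to 73.4% with Stat5a/b siRNA (-0.45 ± 0.064 SE, adjusted p = 9.64e-05). The difference between the siRNAs sat at the threshold (-0.19 ± 0.064 SE, adjusted p = 0.0493). It was lost on leaving out any of Stat3 replicates 1, 2 and 3 or Stat5a/b replicates 1 and 3 (adjusted p from 0.0617 to 0.213) and on the DU145 arrays alone (0.164).

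PIM3 measured 9.44, 9.33 and 9.43 in control, 8.84, 8.61 and 8.66 with Stat3 siRNA and 9.14, 9.11 and 9.20 with Stat5a/b siRNA. Its groups did not overlap either, but its Stat3 arrays were the lowest. PIM3 fell to 61.7% of control with Stat3 siRNA (-0.70 ± 0.068 SE, adjusted p = 2.82e-06) and to 84.1% with Stat5a/b siRNA (-0.25 ± 0.068 SE, adjusted p = 0.0128), and the siRNAs differed (0.45 ± 0.068 SE, adjusted p = 0.000166). Groups that do not overlap were seen for 26.2%, 34.4% and 30.7% of all genes in these 3 comparisons. In CWR22Rv1 PIM1 stayed between 6.71 and 6.94, PIM2 between 6.59 and 6.84 and PIM3 between 11.58 and 11.83 over the 9 arrays. For each of the 3 kinases there, both siRNA groups overlapped control, and the changes ran from -0.068 to 0.068, both for PIM3.

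MYC was called with neither siRNA when replicate numbers were not used as a block. In DU145 it measured 9.98, 9.94 and 10.32 in control, 10.26, 10.06 and 10.55 with Stat3 siRNA and 10.14, 10.09 and 10.78 with Stat5a/b siRNA. Replicate 3 was the highest array of each group, and both siRNA groups overlapped control. The changes were 0.21 ± 0.15 (95% interval -0.12 to 0.53) and 0.26 ± 0.15 (-0.070 to 0.58). In CWR22Rv1 it measured 10.81, 10.73 and 10.79 in control, 10.66, 10.65 and 10.60 with Stat3 siRNA and 10.96, 10.93 and 10.87 with Stat5a/b siRNA. Here the Stat3 arrays lay below and the Stat5a/b arrays above control, a separation that 32.3% and 31.1% of all genes also showed. The CWR22Rv1 changes of -0.14 ± 0.15 and 0.14 ± 0.15 and the difference between the siRNAs (0.29 ± 0.15 SE, adjusted p = 0.276) were not called. That difference was called on the CWR22Rv1 arrays alone (adjusted p = 0.00288).

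Genes for proteins that pair with or oppose MYC were mostly not called, which was also true of all genes. Of 13 measured genes of the MYC, MAX and MXD network, 1 rose and 0 fell with Stat3 siRNA in DU145 (15.8% of all genes called). MXD1, which takes MAX from MYC, rose (1.07 ± 0.20 SE, adjusted p = 0.00112). Stat5a/b siRNA raised 2 and lowered 0 (24.3% of all genes called): MLXIP, a glucose-sensing relative (0.53 ± 0.12), and MAX, the shared partner (0.23 ± 0.061). In CWR22Rv1 limma called 0 with Stat3 siRNA (0 at an unadjusted p under 0.05), and Stat5a/b siRNA raised MLX (0.26 ± 0.059). There 4.77% and 6.46% of all genes were called.

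Among genes that MYC is known to activate, the calls in DU145, counted in either direction, were near the share of all genes. Those with Stat3 siRNA were all lower, in both lines, and were not tested as a set. Of 24 measured, 0 rose and 4 fell with Stat3 siRNA in DU145, where 15.8% of all genes were called (7.51% higher, 8.25% lower). In CWR22Rv1 0 rose and 4 fell, where 4.77% of all genes were called (2.75% higher, 2.02% lower). The list medians were -0.040 and -0.058, beside 0.0056 and -0.0042 for all genes. NCL, the nucleolar protein nucleolin, fell in both lines (-0.30 ± 0.052 and -0.21 ± 0.052), as did TFRC, the transferrin receptor (-0.29 ± 0.090 and -0.41 ± 0.090). NOP16 in DU145 (-0.28 ± 0.057) and NOLC1 in CWR22Rv1 (-0.21 ± 0.055), both nucleolar, fell as well. Stat5a/b siRNA raised 3 and lowered 2 in DU145 (24.3% of all genes called), led by RRS1 (0.35 ± 0.086), WDR43 (-0.27 ± 0.067) and the telomerase gene TERT (0.40 ± 0.10). In CWR22Rv1, where 6.46% of all genes were called, 0 rose and 2 fell, WDR43 (-0.53 ± 0.067) and NOLC1 (-0.31 ± 0.055).

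MUC1 fell with both siRNAs in DU145. Its brightest probe set measured 10.97, 10.96 and 10.77 in control, 10.06, 10.12 and 9.79 with Stat3 siRNA and 10.35, 10.27 and 9.71 with Stat5a/b siRNA. Neither siRNA group reached the lowest control array, and replicate 3 was the lowest of each group. MUC1 stood at 53.2% of control with Stat3 siRNA (-0.91 ± 0.14 SE, adjusted p = 0.000323) and 58.0% with Stat5a/b siRNA (-0.79 ± 0.14 SE, adjusted p = 0.000726). The siRNAs differed by 0.12 ± 0.14 (95% interval -0.18 to 0.43, not called). In a fit over all probe sets, the other 2 MUC1 probe sets were called lower as well, with -0.98 and -0.94 for Stat3 siRNA and -1.23 and -0.99 for Stat5a/b siRNA. In CWR22Rv1 the brightest stayed between 5.96 and 6.28, and its changes of -0.15 ± 0.14 and -0.024 ± 0.14 were not called.

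Other mucin and sialomucin genes were called with Stat5a/b siRNA in DU145 only. Of 16 measured, limma called 0 with Stat3 siRNA in DU145 (1 at an unadjusted p under 0.05), where 15.8% of all genes were called. Stat5a/b siRNA raised 1, the sialomucin CD164 (0.19 ± 0.063), and lowered 1, MUC16, which carries the CA125 antigen (-0.82 ± 0.15), beside 24.3% of all genes called. In CWR22Rv1 limma called 0 with either siRNA (also 0 at an unadjusted p under 0.05), where 4.77% and 6.46% of all genes were called. Of 6 measured markers of luminal epithelium, 0 rose and 2 fell with each siRNA in DU145, where 8.25% and 12.5% of all genes fell. They were the adhesion genes CDH1 (-0.98 ± 0.078 with Stat3 siRNA, -1.18 ± 0.078 with Stat5a/b siRNA) and EPCAM (-0.49 ± 0.082 and -0.40 ± 0.082). The mean of the 6 ran from 9.34 to 9.44 over the DU145 control arrays, 9.02 to 9.19 with Stat3 siRNA and 9.11 to 9.29 with Stat5a/b siRNA. Of 17 measured markers of other cell types (basal, neuroendocrine, fibroblast, endothelial and leukocyte), 1 rose and 2 fell with Stat3 siRNA and 0 and 4 with Stat5a/b siRNA. These counts stand beside 15.8% and 24.3% of all genes called in either direction. The part of either list in the fall of MUC1 was not tested.

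In DU145 the brightest BCL6 probe set stood higher after Stat5a/b siRNA. It measured 8.28, 8.26 and 8.24 in control, 7.97, 8.12 and 8.35 with Stat3 siRNA and 8.61, 8.49 and 8.70 with Stat5a/b siRNA. All Stat5a/b arrays lay above control, whereas the Stat3 arrays spanned it. BCL6 rose to 126% of control with Stat5a/b siRNA (0.34 ± 0.078 SE, adjusted p = 0.00437) and measured -0.11 ± 0.078 with Stat3 siRNA (adjusted p = 0.397). Without Stat3 replicate 3 the Stat3 change was -0.21 and called (adjusted p = 0.0483). The siRNAs differed from each other (0.45 ± 0.078 SE, adjusted p = 0.000512). Fitted on the DU145 arrays alone, the Stat5a/b change of BCL6 lost its call (adjusted p = 0.0545). Whether the STAT motifs in the BCL6 window had a part in this change was not tested.

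In CWR22Rv1, where BCL6 is higher, it measured 11.07, 11.07 and 11.12 in control, 11.34, 11.33 and 11.36 with Stat3 siRNA and 11.17, 11.12 and 11.09 with Stat5a/b siRNA. The Stat3 arrays lay above control and the Stat5a/b arrays overlapped it; the changes were 0.26 ± 0.078 SE, adjusted p = 0.0743, and 0.041 ± 0.078. The Stat3 change was called on leaving out dim genes (adjusted p = 0.0298) and with a variance that follows the level (0.0233). It was also called with the mean of probe sets (0.33, adjusted p = 0.0193) and on the CWR22Rv1 arrays alone. The difference between the siRNAs (-0.22 ± 0.078 SE, adjusted p = 0.0936) was called in the same settings. With the mean of probe sets it was -0.55 (adjusted p = 0.000154). Its adjusted p was 0.0422 without dim genes, 0.0390 with that variance and 0.00720 on those arrays alone. The 3 BCL6 probe sets parted with Stat5a/b siRNA. In DU145 the second and the third in brightness gave 0.19 ± 0.16 and 0.16 ± 0.13, neither called. In CWR22Rv1 the third measured 8.46, 8.51 and 8.72 in control, 8.77, 8.95 and 8.96 with Stat3 siRNA and 7.96, 7.89 and 7.80 with Stat5a/b siRNA. Its Stat5a/b arrays were all below control, and it was called lower (-0.68 ± 0.13 SE, adjusted p = 0.00494), while the second gave -0.023 ± 0.16. Against Stat3 siRNA the third was called lower as well (-1.01 ± 0.13 SE, adjusted p = 0.000105).

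Of 13 measured partners and targets of BCL6, 4 were raised and 1 lowered by Stat5a/b siRNA in DU145 cells, where 24.3% of all genes were called (median 0.066, all genes 0.011). The stress gene GADD45A (0.36 ± 0.094), the corepressor BCOR (0.48 ± 0.13) and the cell cycle inhibitor CDKN1B (0.30 ± 0.086) rose. With Stat3 siRNA 1 rose, GADD45A again (0.37 ± 0.094), and 0 fell, beside 15.8% of all genes called. In CWR22Rv1 limma called 0 with Stat3 siRNA (1 at an unadjusted p under 0.05), and with Stat5a/b siRNA the checkpoint kinase CHEK1 fell (-0.51 ± 0.090). There 4.77% and 6.46% of all genes were called.

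**Figure D3:**
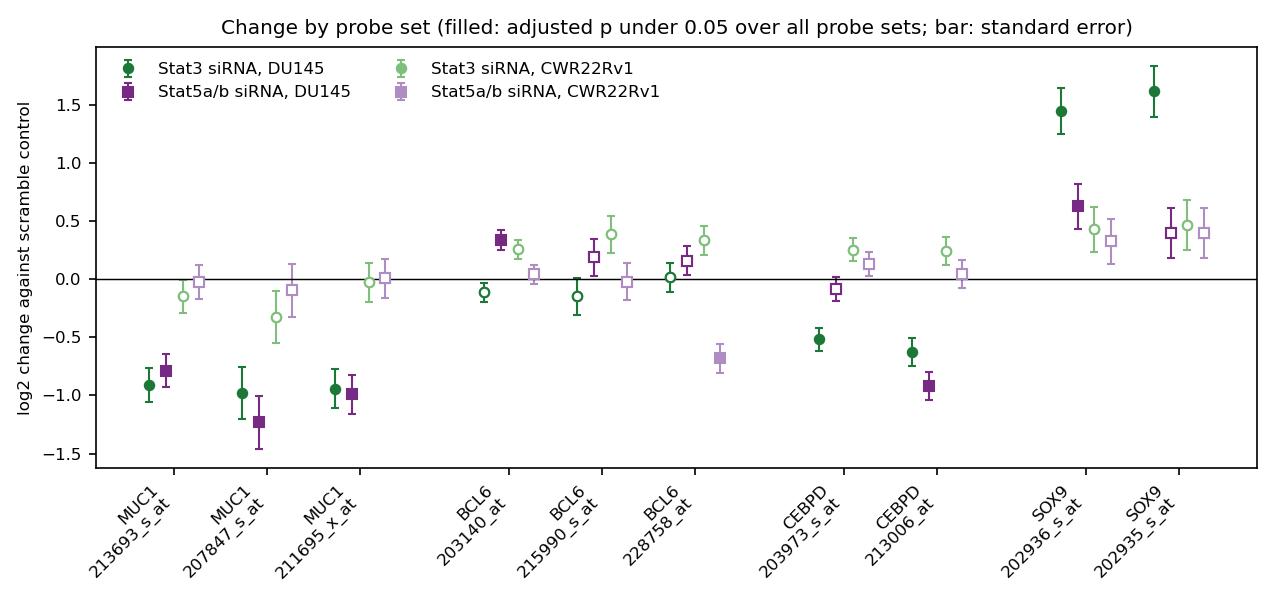
Log2 change from scramble control (vertical axis) for the probe sets of the 4 genes that have more than 1, by siRNA and line, as differences between means of 3 arrays with standard errors from the fit over all probe sets; filled points are called. The MUC1 probe sets lie together in DU145, while CEBPD splits with Stat5a/b siRNA in DU145 (-0.085 and -0.92) and BCL6 in CWR22Rv1 (0.041, -0.023 and -0.68).

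CEBPB rose with Stat5a/b siRNA in DU145. It measured 10.69, 10.71 and 10.55 in control, 10.54, 10.53 and 10.52 with Stat3 siRNA and 11.16, 11.23 and 11.19 with Stat5a/b siRNA. The Stat5a/b arrays lay well above control, and the Stat3 arrays just below it. CEBPB rose to 145% of control with Stat5a/b siRNA (0.54 ± 0.058 SE, adjusted p = 5.40e-06) and measured -0.12 ± 0.058 with Stat3 siRNA (adjusted p = 0.212). The siRNAs differed by 0.66 ± 0.058 (adjusted p = 6.27e-07). In CWR22Rv1 it measured 10.54, 10.48 and 10.56 in control, 10.60, 10.62 and 10.62 with Stat3 siRNA and 10.36, 10.43 and 10.27 with Stat5a/b siRNA. There the order was turned, with Stat5a/b arrays lowest and Stat3 arrays highest. The changes of -0.17 ± 0.058 and 0.091 ± 0.058 were not called, but the siRNAs differed (-0.26 ± 0.058 SE, adjusted p = 0.00709), the 1 call among the 9 genes where 10.8% of all genes were called (4.70% higher, 6.05% lower). The arrays of both siRNAs did not overlap, as for 36.8% of all genes. The Stat5a/b change was called lower on leaving out dim genes (adjusted p = 0.0327) and with a variance that follows the level (0.0244).

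CEBPD fell with Stat3 siRNA in DU145. Its brighter probe set measured 9.91, 9.69 and 9.52 in control, 9.23, 9.31 and 9.03 with Stat3 siRNA and 9.70, 9.70 and 9.45 with Stat5a/b siRNA. The Stat3 arrays lay below control, and the Stat5a/b arrays overlapped it. CEBPD fell to 69.9% of control with Stat3 siRNA (-0.52 ± 0.10 SE, adjusted p = 0.00154) and measured -0.085 ± 0.10 with Stat5a/b siRNA, and the siRNAs differed (0.43 ± 0.10 SE, adjusted p = 0.00435). Its dimmer probe set measured 4.26, 4.47 and 4.21 in control, 3.76, 3.92 and 3.38 with Stat3 siRNA and 3.30, 3.44 and 3.43 with Stat5a/b siRNA. On that one the Stat5a/b arrays were lowest, and it was called lower with both siRNAs (-0.62 ± 0.12 SE, adjusted p = 0.00280 for Stat3; -0.92 ± 0.12 SE, adjusted p = 6.20e-05 for Stat5a/b). With the mean of both probe sets CEBPD was called lower with Stat5a/b siRNA (-0.50, adjusted p = 0.000654) and did not differ detectably between the siRNAs (0.069, 0.648). In CWR22Rv1 the brighter probe set measured 8.63, 8.48 and 8.47 in control, 8.79, 8.74 and 8.82 with Stat3 siRNA and 8.71, 8.62 and 8.65 with Stat5a/b siRNA. The Stat3 arrays lay above control, with a change of 0.26 ± 0.10 (adjusted p = 0.176), and Stat5a/b siRNA gave 0.13 ± 0.10.

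Other C/EBP genes and related factors rose alongside CEBPB with Stat5a/b siRNA in DU145. Of 7 measured, 5 rose and 0 fell, where 11.8% of all genes rose (median 0.33, all genes 0.011). CEBPG, a C/EBP without an activating domain (0.65 ± 0.072 SE, adjusted p = 7.26e-06), DDIT3, the stress factor CHOP (0.76 ± 0.10 SE, adjusted p = 4.77e-05), and ATF4, the activator of the amino acid response (0.46 ± 0.065 SE, adjusted p = 7.62e-05), had the smallest p. With Stat3 siRNA in DU145 limma called 0 of them (4 at an unadjusted p under 0.05), where 15.8% of all genes were called. In CWR22Rv1 it called 0 with Stat3 siRNA (2 unadjusted), beside 4.77% of all genes. It called 0 with Stat5a/b siRNA (5 unadjusted), beside 6.46% of all genes, where the list median was -0.16 and that of all genes 0.024. The values in CWR22Rv1 with Stat5a/b siRNA were -0.16 ± 0.072 for CEBPG, -0.24 ± 0.10 for DDIT3 and -0.20 ± 0.065 for ATF4.

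**Figure D4:**
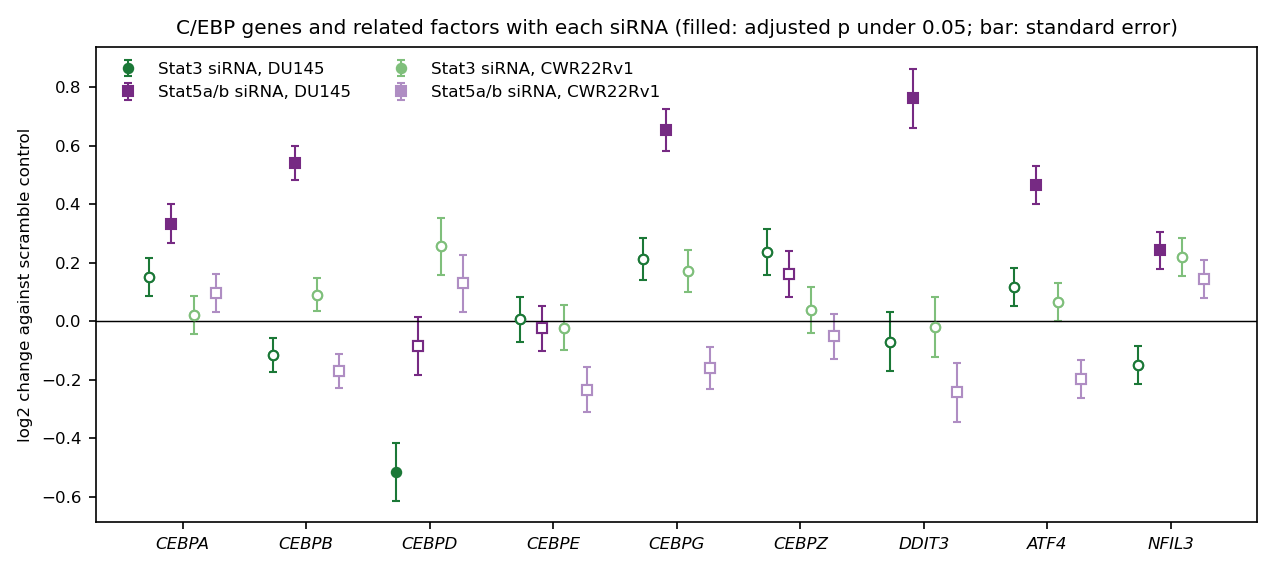
Log2 change from scramble control (vertical axis) of CEBPB, CEBPD, the other C/EBP genes and related factors under each siRNA in each line, as differences between means of 3 arrays with standard errors of the fit; filled points are called. With Stat5a/b siRNA CEBPB, CEBPG, DDIT3 and ATF4 lie above 0 in DU145 (0.54, 0.65, 0.76 and 0.46) and below 0, uncalled, in CWR22Rv1.

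Of 15 measured acute-phase and other C/EBP target genes, 1 rose and 1 fell with Stat3 siRNA in DU145, near the 15.8% of all genes called. The chemokine gene CXCL8 rose (1.65 ± 0.37 SE, adjusted p = 0.00526) and the fibrinogen gene FGB fell (-0.66 ± 0.17). The haptoglobin gene HP fell with Stat5a/b siRNA (-0.32 ± 0.094) and 0 rose, where 24.3% of all genes were called. In CWR22Rv1 limma called 0 with Stat3 siRNA and 0 with Stat5a/b siRNA (2 and 1 at an unadjusted p under 0.05), beside 4.77% and 6.46% of all genes.

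SOX9 rose with Stat3 siRNA in DU145, the largest change of the 9 genes there. It measured 6.05, 6.19 and 6.73 in control, 7.64, 7.69 and 7.98 with Stat3 siRNA and 6.67, 6.64 and 7.54 with Stat5a/b siRNA. The Stat3 arrays lay above all others, and the Stat5a/b arrays overlapped control, with replicate 3 highest in each group. SOX9 rose 2.73-fold with Stat3 siRNA (1.45 ± 0.20 SE, adjusted p = 7.89e-05), rank 7 of all genes by size of increase. Under Stat5a/b siRNA it rose 1.55-fold (0.63 ± 0.20 SE, adjusted p = 0.0273). That call was lost without control replicate 1 (adjusted p = 0.131), without control replicate 2 (0.0925) and without Stat5a/b replicate 3, where the change was 0.33 (adjusted p = 0.116). It was also lost with the mean of both probe sets (0.0568). The siRNAs differed (-0.82 ± 0.20 SE, adjusted p = 0.00617), but not on the DU145 arrays alone (adjusted p = 0.0547).

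The other SOX9 probe set gave 1.62 ± 0.22 with Stat3 siRNA (adjusted p = 0.000113) and 0.40 ± 0.22 with Stat5a/b siRNA (0.249, not called) in DU145. In CWR22Rv1 SOX9 measured 8.37, 8.35 and 8.27 in control, 8.74, 8.74 and 8.81 with Stat3 siRNA and 8.59, 8.73 and 8.65 with Stat5a/b siRNA. Both siRNA groups lay above control there, with changes of 0.43 ± 0.20 SE, adjusted p = 0.275, and 0.33 ± 0.20 SE, adjusted p = 0.441. Of 15 other measured SOX genes, 1 rose and 1 fell with Stat3 siRNA in DU145, SOX30 (0.41 ± 0.10) and SOX12 (-0.72 ± 0.084); SOX12 fell in CWR22Rv1 too (-0.60 ± 0.084). In the Stat5a/b comparison SOX7 (0.77 ± 0.18) and SOX13 (0.33 ± 0.080) rose and SOX4 (-0.35 ± 0.085) fell in DU145, and limma called 0 in CWR22Rv1 (2 unadjusted). Of 15 measured genes that SOX9 is known to activate, mostly from cartilage, limma called 0 in each of the 4 siRNA comparisons. At an unadjusted p under 0.05 there were 1 and 0 in DU145, and 0 and 1 in CWR22Rv1, for Stat3 and Stat5a/b siRNA in turn. Beside the counts of the SOX genes and of these targets, 15.8% and 24.3% of all genes were called in DU145. In CWR22Rv1 the shares were 4.77% and 6.46%.

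Whether an siRNA acted differently in the 2 lines was tested as the effect in CWR22Rv1 minus that in DU145. For Stat3 siRNA 2 of the 9 differed, where 3.00% of all genes did (1.82% higher, 1.18% lower): PIM3 (0.63 ± 0.10 SE, adjusted p = 0.00311) and CEBPD (0.77 ± 0.14 SE, adjusted p = 0.00801), both lowered in DU145. MUC1 (0.76 ± 0.20, adjusted p = 0.0535), SOX9 (-1.02 ± 0.28, 0.0594), PIM1 (0.0709) and BCL6 (0.0849) missed the threshold. SOX9 was called with quantile normalisation (0.0385), cyclic loess (0.0428), the mean of probe sets (0.0398), without dim genes (0.0294), with a variance trend (0.0176) and without DU145 control replicate 3 (0.0196). MUC1 was called without dim genes (0.0253) and with the trend (0.0161), and PIM1 without dim genes (0.0282). BCL6 was called without dim genes (0.0362), with the trend (0.0289) and without DU145 Stat3 replicate 3 (0.0156). For Stat5a/b siRNA 4 differed, where 11.9% of all genes did (6.75% higher, 5.17% lower). PIM2 (0.47 ± 0.091 SE, adjusted p = 0.00343), PIM3 (0.32 ± 0.10 SE, adjusted p = 0.0416) and MUC1 (0.76 ± 0.20 SE, adjusted p = 0.0214) fell in DU145 and measured 0.027, 0.068 and -0.024 in CWR22Rv1, none called there, and CEBPB had a difference of the other sign (-0.71 ± 0.082 SE, adjusted p = 6.65e-05). MUC1 stood at 6.18 in CWR22Rv1 control, and its other 2 probe sets at 5.19 and 4.78. The array medians were 5.16 to 5.20. Whether this low level limited a fall of MUC1 in CWR22Rv1 was not tested. With the mean of a gene's probe sets CEBPD (0.59, adjusted p = 0.00729) and BCL6 (-0.45, 0.0111) were called for Stat5a/b siRNA too. Leaving out each of the 12 arrays in turn took the call from PIM3 in 9 cases (adjusted p up to 0.110; kept without DU145 control replicate 2, DU145 Stat5a/b replicate 3 or CWR22Rv1 control replicate 2) and from MUC1 in 4 (up to 0.0621; lost without DU145 control replicate 1, CWR22Rv1 control replicate 3 or CWR22Rv1 Stat5a/b replicate 1 or 2).

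**Figure D5:**
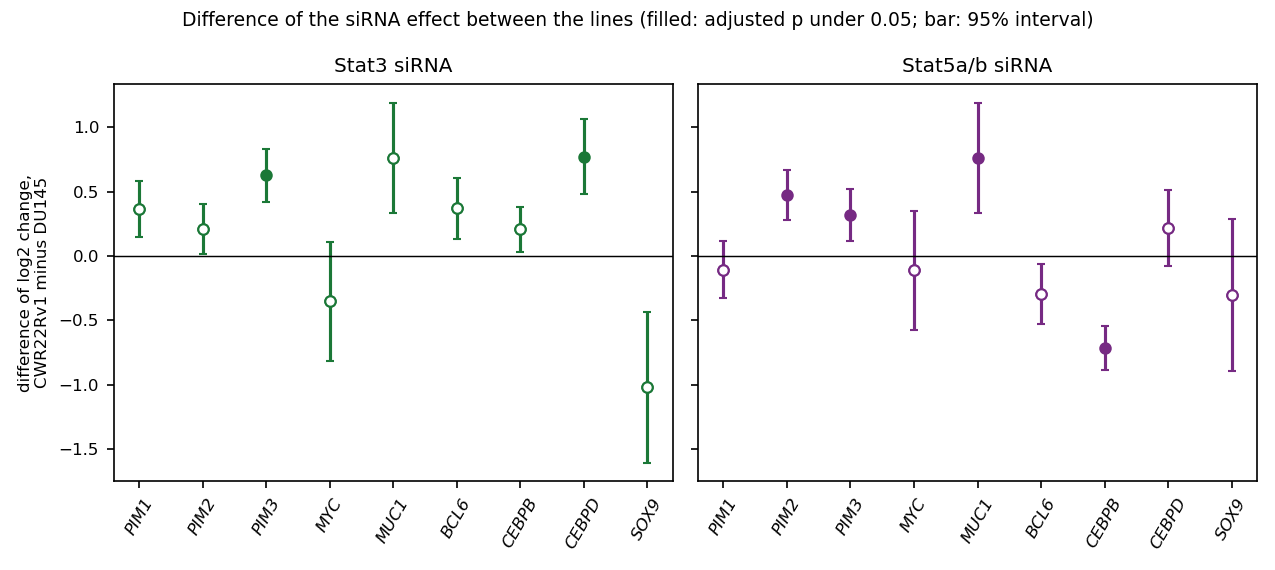
Effect of each siRNA in CWR22Rv1 minus its effect in DU145 (log2) for the 9 genes (vertical axis, 1 panel per siRNA), with 95% intervals as bars and called differences filled. CEBPB with Stat5a/b siRNA (-0.71) is the called difference below 0, and CEBPD with Stat3 siRNA (0.77) the highest called one.

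Beyond the 9, 34 other measured genes that textbooks list as STAT3 or STAT5 targets gave calls in both directions. With Stat3 siRNA in DU145 3 rose and 5 fell, where 15.8% of all genes were called (median -0.055, all genes 0.0056). The cytokine receptor gene LIFR (-1.15 ± 0.093 SE, adjusted p = 4.58e-07) and the angiogenic factor VEGFA (-0.63 ± 0.10) fell, and the cell cycle inhibitor CDKN1A rose (0.49 ± 0.091). Stat5a/b siRNA raised 7 and lowered 4 (24.3% of all genes called), led by CCND1, encoding cyclin D1 (-0.57 ± 0.061), FASN, the fatty acid synthase (-0.72 ± 0.10), and MCL1, a survival factor (0.49 ± 0.079). In CWR22Rv1 2 rose and 2 fell with Stat3 siRNA (4.77% of all genes called), with LIFR (-0.56 ± 0.093) and OSMR (-0.26 ± 0.070) lower and CCND1 higher (0.26 ± 0.061). With Stat5a/b siRNA 3 rose and 2 fell (6.46% of all genes called), with CDKN1A (1.10 ± 0.091 SE, adjusted p = 2.08e-06) and the death receptor gene FAS (0.44 ± 0.055) higher and BIRC5, encoding survivin, lower (-0.28 ± 0.059).

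The genes whose levels ran most like each called member were found by Pearson r over the 18 arrays, each line centred on its own mean. This is a description, since the arrays of a group share their treatment. Values within DU145 and within CWR22Rv1 follow each r. CEBPB ran closest with IRF7 (r = 0.956, 0.958 and 0.947) and PLSCR1 (0.929, 0.951 and 0.794), both known as interferon-induced genes. With Stat5a/b siRNA in DU145 these rose by 1.22 ± 0.15 and 1.12 ± 0.084. In CWR22Rv1 the same siRNA gave -0.24 ± 0.15 for IRF7, not called, and lowered PLSCR1 (-0.33 ± 0.084 SE, adjusted p = 0.027). PIM3 ran closest with SEPTIN2 (0.953, 0.975 and 0.814) and ARFIP2 (0.940, 0.955 and 0.708), PIM1 with PRDX3 (0.928, 0.978 and 0.601) and HYCC2 (0.928, 0.949 and 0.695), and PIM2 with CRB3 (0.918, 0.935 and 0.924) and TP53BP1 (0.916, 0.959 and 0.438). SOX9 ran closest with MXD1 (0.953, 0.985 and 0.669) and INAFM2 (0.950, 0.963 and 0.803), and MUC1 with NAPSA (0.946, 0.984 and 0.538) and TMEM9 (0.945, 0.970 and 0.671). For BCL6 they were ACBD3 (0.902, 0.947 and 0.739) and CARD8 (0.899, 0.939 and 0.751), and for CEBPD AKR1C3 (0.900, 0.908 and 0.870) and PLPP3 (0.894, 0.912 and 0.858).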

How the data were processed

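RNA of 2 prostate cancer lines was hybridised to 18 Affymetrix arrays, 3 per group, with groups taken from the labels. The authors deposited log2 values made with RMA, per the submitters' processing notes, which summarises the probes of a probe set after normalisation across arrays and can compress large changes; the notes also name limma. Versions are not given in the sources used here. Probe sets carrying 1 symbol in the platform annotation were kept, and the one with the highest mean over all arrays stood for its gene.

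All 19775 genes on 18 arrays were fitted with limma 3.58.1 in R 4.3.3, with 1 mean per group and one error (12 residual and 3.82 prior degrees of freedom), two-sided, with Benjamini-Hochberg adjustment within each comparison at 0.05; errors printed after changes are standard errors of this fit. Same-numbered arrays of DU145 control and Stat3 siRNA deviated together (correlations 0.158 to 0.328, each over 0.1), which pairs them by the data and not by the labels; the block changed no call of the 9 genes in that comparison. A second fit took all probe sets. The number of arrays limits the precision. The scripts were tested on simulated data. The 9 genes and all gene lists were chosen with earlier results of these data known. Named genes were the 9, the siRNA targets, up to 3 called genes of each list per siRNA comparison by smallest adjusted p, and the 2 genes most like each called member. C/EBP relatives named in one line were also given in the other. CDH1 and EPCAM, the called luminal markers, were named after their values were seen, as were KLK3, ENO2, COL1A1, LUM and CD14. Alternatives were quantile and cyclic loess scaling, the mean of probe sets, leaving out dim genes (mean under 6), a variance trend, a replicate block, each line alone and leaving out each array; those for probe sets were chosen after seeing the data.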

Additional observations from a re-analysis of the deposited data

Results flagged for a closer look

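For 6 results the effect of an siRNA differed between the lines by a direct test, the effect in CWR22Rv1 minus that in DU145. For Stat3 siRNA these were PIM3 (0.63 ± 0.10 SE, adjusted p = 0.00311), with -0.70 in DU145 and -0.068 in CWR22Rv1, and CEBPD (0.77 ± 0.14 SE, adjusted p = 0.00801), with -0.52 and 0.26. For Stat5a/b siRNA they were PIM2 (0.47 ± 0.091 SE, adjusted p = 0.00343), with -0.45 and 0.027, PIM3 (0.32 ± 0.10 SE, adjusted p = 0.0416), with -0.25 and 0.068, and MUC1 (0.76 ± 0.20 SE, adjusted p = 0.0214), with -0.79 and -0.024. CEBPB had the opposite sign (-0.71 ± 0.082 SE, adjusted p = 6.65e-05), with 0.54 and -0.17. Control levels of MUC1 were 10.90 in DU145 and 6.18 in CWR22Rv1. Groups of 3 arrays were not searched for single outlying arrays.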

How the results depend on the processing

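Of 1125 values of the 9 genes recomputed under another setting, 1048 kept their side of the threshold, 35 lost a call, 42 gained one and 0 called values changed sign. Among the 1048 were 16 uncalled values that changed sign. With Stat5a/b siRNA in DU145 the count of 6 was 3 on the DU145 arrays alone. In CWR22Rv1 the count of 0 with Stat3 siRNA was 1 with the mean of probe sets, 1 without dim genes, 1 with a variance trend and 3 on its own arrays. The count of 0 with Stat5a/b siRNA was 1 in each of the last 3 of these settings. Between the siRNAs in CWR22Rv1 the count of 1 was 2 with the mean of probe sets, without dim genes or with the trend, and 3 on its own arrays. The count of line differences with Stat3 siRNA, 2, was 6 without dim genes and 5 with the trend. Leaving out 1 array gave 2 to 4 line differences with Stat5a/b siRNA; the 2 arose without DU145 control replicate 1, CWR22Rv1 control replicate 3, or CWR22Rv1 Stat5a/b replicate 1 or 2. Over the 4 siRNA comparisons the 15 probe sets gave 20 calls, and 19 to 22 under other settings.

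Outside DU145 control and Stat3 siRNA, not every same-numbered pair of 2 groups correlated over 0.1. Same-numbered deviations correlated at 0.0116 to 0.175 in the other DU145 comparisons and -0.0666 to 0.139 in CWR22Rv1, beside -0.241 to 0.0550 and -0.104 to 0.113 for different numbers. DU145 control and Stat5a/b arrays of the same number correlated at 0.0636, 0.122 and 0.175. Each lay above all their different-numbered pairs (-0.137 to 0.0550), so these groups may be paired too. With the number as a replicate block the count with Stat3 siRNA in CWR22Rv1 was 2 (CEBPD and SOX9 added), between the siRNAs there 2 (MYC added), and of line differences with Stat3 siRNA 4 (MUC1 and SOX9 added). With Stat5a/b siRNA in DU145 it was 7, MYC being added (0.26, adjusted p = 0.0166); the block changed no other call of the 9 genes.

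Quantile normalisation moved the balance of all calls in CWR22Rv1 with Stat3 siRNA from 544 higher and 400 lower to 426 and 496. Between the siRNAs there it went from 930 and 1196 to 1217 and 965 (1185 and 985 with cyclic loess), and for the Stat3 line differences from 359 and 234 to 284 and 292. The balance with either siRNA in DU145, with Stat5a/b siRNA in CWR22Rv1 and between the siRNAs in DU145 also passed to more higher than lower calls, 1615 and 1600, 2631 and 2293, 712 and 625 and 2365 and 2133 in turn. The cause of these shifts was not tested. No background measure is used here; the dimmer CEBPD probe set, between 2.72 and 4.47, lies below the array medians of 5.16 to 5.20.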
